A study of Mus musculus with 15 samples.

Results

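Hearts of mice given angiotensin II (AngII) together with QDG were compared with hearts of control mice. The comparison holds 10 of the 15 libraries of the series: the 5 labelled AngII and QDG Treatment (called AngII+QDG below) against the 5 labelled Control. Every library came from heart tissue of a male C57BL/6 mouse, and per the series' design text each group had 5 mice. The remaining 5 libraries, from mice given AngII without QDG, are set beside the results. The labels name QDG by its abbreviation alone and give no doses, route, duration or age. No group received QDG without AngII, so the 2 agents cannot be told apart in AngII+QDG against Control. Expression was read as FPKM (fragments assigned to a transcript, scaled to its length and to the depth of the library) of named transcripts, summed to 12380 genes, of which 12238 were tested, those that reached 0.5 FPKM in 5 or more libraries.

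Angiotensin II is the effector peptide of the renin-angiotensin system. Through its type 1 receptor and Gq it raises blood pressure and acts on cardiac cells, and sustained infusion is a standard way to bring about cardiac hypertrophy and fibrosis in mice. In loaded cardiomyocytes, genes for natriuretic peptides, fetal contractile isoforms and mechanical stress proteins are known to rise, while fibroblasts produce collagen under TGF-beta and connective tissue growth factor.

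The Control libraries stood apart in their make-up. Depth, read from the smallest step of the values, was 51610000 to 76520000 steps in AngII+QDG and 65670000 to 72920000 steps in Control, a difference that did not pass the test (exact permutation test, two-sided, adjusted p = 0.392). Transcripts at 0 made up 12.1 ± 5.19% (SD, n = 5) of all transcripts listed in a library's own file in Control and 5.53 ± 0.768% in AngII+QDG. The files listed 31685 transcripts in Control and 31734 in AngII+QDG, with 29996 listed in all 15 files, so the sets differ in part. The balance of short (under 1000 nt) against long (3000 nt or more) protein-coding transcripts, the difference of their mean log2 values, was 1.20 ± 0.18 in Control and 0.81 ± 0.10 in AngII+QDG. Neither measure overlapped between the groups, and each gave the smallest p that 5 against 5 libraries allow (exact permutation test, two-sided, p = 0.00794, adjusted p = 0.0159 over 4 measures). Control 5, with 20.6% of transcripts at 0, and Control 3, with 12.7%, lay farthest from the other libraries on the first principal component. The heart identity of the tissue was clear in all libraries: Myh6, the adult cardiac myosin heavy chain, stood between 2481 and 7123 FPKM.

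**Figure D1:**
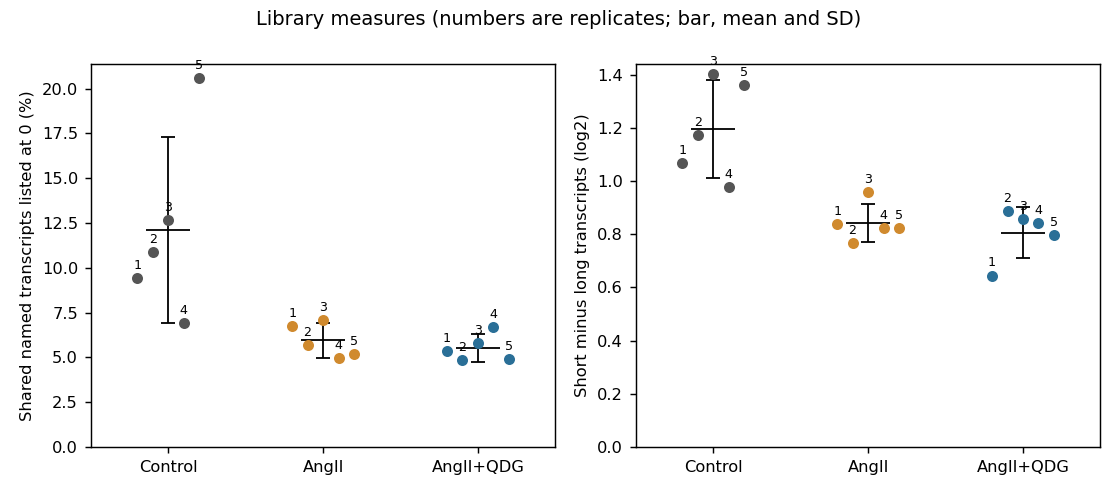
Share of transcripts at 0 (left, percent) and balance of short against long protein-coding transcripts (right, log2 units) in each library, with group mean and SD. The left axis label reads shared named transcripts, but the share is over all transcripts listed in each library's own file. Every Control library lies above every AngII+QDG library in both panels, and Control 5 is highest in the left one at 20.6%.

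Many more genes were higher than lower in AngII+QDG hearts. With limma and Benjamini-Hochberg adjustment at 0.05, 1893 of 12238 genes (15.5%) were higher and 385 (3.15%) lower, and 4043 genes had an unadjusted p under 0.05. Every AngII+QDG library lay above every Control library for 1498 genes (12.2%) and below for 203 (1.66%). The median gene shifted by 0.18 on the log2(FPKM + 1) scale, the scale of every log2 change given here. That scale understates the change of genes with low values. Changes passed 1 log2 unit for 350 higher and 21 lower genes. The split of the calls followed the scaling: with each library scaled to the same median (median scaling), which put the median gene at -0.092, 727 genes were higher and 1557 lower, and with quantile normalization (-0.032) 882 were higher and 903 lower. With the mitochondrial genes left out before rescaling 2850 were higher and 167 lower, and after removal of the trend with transcript length in every library 612 and 493. Without Control 3 and Control 5, 893 genes (7.3%) were higher and 187 (1.53%) lower, the median gene moved by 0.051, and 856 of the higher and 99 of the lower calls remained. Leaving out AngII+QDG 1 left 1140 higher and 157 lower genes, and leaving out AngII+QDG 5 left 1297 and 171. The lower genes were 204 without Control 2 and 184 without Control 3.

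The changes rose with transcript length. Among genes whose longest listed transcript was under 1000 nt, 4.70% were higher and 12.8% lower, and the median log2 change was -0.15. Among genes of 6000 nt or more, 33.9% were higher and 0.657% lower, with a median of 0.41. Higher genes had a median longest transcript of 4183 nt and lower genes of 977 nt, against 2741.5 nt over all tested genes. The median change also rose from -0.11 to 0.28 between these classes without Control 3 and Control 5. With the short-against-long balance of each library as a term in the fit, 2 genes passed, Sptb and Gtf3c4 (Gtf3c4, a subunit of transcription factor TFIIIC, was named after its values were seen), while 855 had an unadjusted p under 0.05. Because the balance does not overlap between Control and AngII+QDG, it cannot be told apart from the treatment, and every other call given here was lost with that term.

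**Figure D2:**
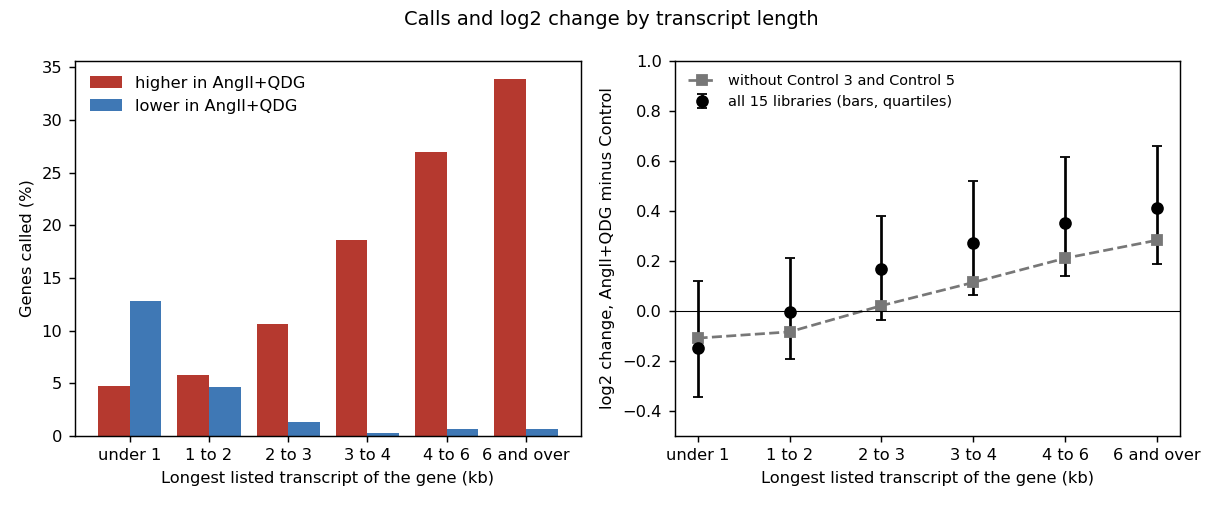
Percent of tested genes called higher or lower in AngII+QDG (left) and median log2 change against Control (right; bars, quartiles over genes) by the length of the gene's longest listed transcript. The share called higher goes from 4.70% under 1 kb to 33.9% at 6 kb and over, and the medians keep their order without Control 3 and Control 5.

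Set against AngII alone, AngII+QDG hearts gave 0 of 12238 calls (0%), with 472 genes at an unadjusted p under 0.05 and a smallest adjusted p of 0.373 by limma. That comparison shares the AngII+QDG libraries with the one described here, so AngII values are given beside the others as levels only. Each such level below is the mean ± SD of 5 AngII libraries.

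The largest changes were taken among called genes whose Control and AngII+QDG libraries did not overlap, so the lack of overlap is part of the choice. The 10 largest rises included Ccn2, the matricellular connective tissue growth factor, and the junction protein Lmo7. Ccn2 (GRCm38 chr10:24595442-24598683) stood at 16.6, 16.7, 14.3, 16.4 and 11.7 FPKM in Control 1 to 5. In AngII+QDG 1 to 5 it stood at 39.9, 94.9, 117, 110.5 and 134 FPKM. The log2 change was 2.54 ± 0.35 (SE, adjusted p = 0.00159), and the AngII libraries held 75.02 ± 38.3 FPKM. Lmo7, which sits at adherens junctions, was at 2.49, 5.82, 3.33, 5.33 and 1.64 FPKM in Control and 11.5, 18.9, 36.3, 35.6 and 16.8 FPKM in AngII+QDG (2.35 ± 0.35, adjusted p = 0.00195). Klf9, a transcription factor induced by glucocorticoids and thyroid hormone, was at 0 to 0.532 FPKM in Control. It reached 28.3, 1.07, 18.0, 23.2 and 25.7 FPKM in AngII+QDG 1 to 5 (3.48 ± 0.80, adjusted p = 0.0109), so its AngII+QDG 2 library stood far below the other 4. In the AngII libraries Klf9 ranged from 0.712 to 19.9 FPKM. Eif5, a translation initiation factor, was at 0.389 to 0.787 FPKM in Control and 2.18 to 18.1 FPKM in AngII+QDG (2.57 ± 0.49, adjusted p = 0.00592). Adnp, a chromatin-associated zinc finger protein, was at 0 to 0.247 against 0.825 to 7.76 FPKM (2.32 ± 0.50, adjusted p = 0.00861).

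In the other 5 of these genes the Control libraries were divided or at 0. Sptb, the erythroid and muscle beta-spectrin, was listed at 0 in all 5 Control libraries. It stood at 11.4, 10.46, 10.7, 7.84 and 8.6001 FPKM in AngII+QDG 1 to 5 and 8.88 ± 0.623 FPKM in AngII (adjusted p = 1.01e-10). This value rests on 1 shared transcript: with all named transcripts counted, every Control library was above 0 and its log2 change was 2.33. In that setting, here and below, a transcript not listed in a library's file counts as 0. The listed transcripts differ in part between Control and AngII+QDG, so the setting can itself create or remove differences. Flnc, the muscle filamin of the Z-disc, was at 0, 24.6, 0.295, 27.6 and 0 FPKM in Control 1 to 5. The AngII+QDG libraries held 32.9 to 43.9 FPKM (3.24 ± 0.85, adjusted p = 0.0188), close together where Control was not, and with all named transcripts the log2 change was 1.11. Rhobtb1, a BTB domain protein, read 9.03, 0, 7.79, 6.44 and 0.119 FPKM in Control and 20.2 to 36.6 FPKM in AngII+QDG (2.92 ± 0.57, adjusted p = 0.00625). Btnl9, a butyrophilin-like protein, read 0.00578, 0.0800, 0.0673, 6.57 and 0 FPKM in Control and 6.60 to 10.7 FPKM in AngII+QDG (2.56 ± 0.45, adjusted p = 0.00396). Glg1, a Golgi glycoprotein, was listed at 0 in Control 2, 3 and 5 and stood at 11.5 to 15.5 FPKM in AngII+QDG (2.53 ± 0.58, adjusted p = 0.011). Without Control 3 and Control 5 the call was lost for Klf9 (log2 3.36, adjusted p = 0.0567), Flnc (log2 2.04, adjusted p = 0.131) and Glg1 (log2 1.69, adjusted p = 0.0751). Across the tested genes, 207 called genes had at least 1 Control library at 0 and 14 had all 5.

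The 10 largest falls included a few long transcripts, in a class where falls were rare. Insr, the insulin receptor (chr8:3122061-3279617, 1 listed transcript of 9355 nt), stood at 3.895, 3.24, 3.54, 3.58 and 3.37 FPKM in Control 1 to 5. It stood at 0.382, 0.0768, 0.0727, 0.108 and 0.107 FPKM in AngII+QDG 1 to 5 (-1.98 ± 0.38, adjusted p = 0.00613). In AngII the transcript was at 5.82, 0.220, 0.0240, 0.294 and 0.289 FPKM, with AngII 1 above every Control library and the other 4 below all of them. Pbrm1, a subunit of the PBAF chromatin remodeller with a transcript of 7907 nt, was at 1.44 to 2.15 FPKM in Control and 0 to 0.524 FPKM in AngII+QDG (-1.13 ± 0.30, adjusted p = 0.0188). Vwf, the endothelial von Willebrand factor (8834 nt), was at 8.70 to 17.3 against 2.44 to 8.38 FPKM (-1.03 ± 0.29, adjusted p = 0.0236). Ubl7, a ubiquitin-like protein, was at 26.5 to 39.7 FPKM in Control and 4.09 to 26.02 FPKM in AngII+QDG (-1.48 ± 0.34, adjusted p = 0.0109). Gid8, a subunit of the CTLH ubiquitin ligase, was at 4.15 to 9.71 against 1.22 to 3.87 FPKM (-1.40 ± 0.30, adjusted p = 0.00873), and AngII held 8.95 ± 4.22 FPKM. Fkbp2, an endoplasmic reticulum prolyl isomerase, was at 17.0 to 33.9 against 5.90 to 16.0 FPKM (-1.17 ± 0.23, adjusted p = 0.00643).

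The remaining falls were Gpx3, the secreted glutathione peroxidase (172 to 239.8 FPKM in Control, 39.4 to 157 in AngII+QDG, -1.09 ± 0.35, adjusted p = 0.0413), and Inmt, an amine methyltransferase (16.3 to 47.0 against 4.91 to 13.4 FPKM, -1.19 ± 0.34, adjusted p = 0.0263). Dohh, the deoxyhypusine hydroxylase, fell (3.47 to 29.2 FPKM in Control against 0.966 to 3.44 in AngII+QDG, -2.27 ± 0.73, adjusted p = 0.0435), a call lost with all named transcripts counted (log2 -1.89, adjusted p = 0.0829) and with a pseudocount of 0.1 (adjusted p = 0.0568). Hba-a2, an alpha-globin of red cells, fell (269 to 1504 FPKM in Control against 29.3 to 175 in AngII+QDG, -2.78 ± 0.80, adjusted p = 0.0282), and its near-identical copy Hba-a1 read 689 to 3876 and 562 to 2137 FPKM (log2 -0.62, adjusted p = 0.345). Reads can be split between the 2 copies, so both values are uncertain. Single libraries decided several of these calls: they were lost for Hba-a2 without Control 5 or AngII+QDG 1, 2 or 3 (adjusted p 0.053 to 0.0757), Dohh without any 1 library but Control 4 (adjusted p 0.0629 to 0.0913) and Inmt without Control 3 or AngII+QDG 1 or 3 (adjusted p 0.0513 to 0.0641), and for Gpx3 without any 1 library but Control 4 or AngII+QDG 2 or 4 (adjusted p 0.0615 to 0.0845) and Vwf without Control 5 or AngII+QDG 4 or 5 (adjusted p 0.0542 to 0.0551). Without Control 3 and Control 5 the calls lost were Hba-a2 (log2 -2.42, adjusted p = 0.121), Dohh (log2 -2.14, adjusted p = 0.156), Ubl7 (log2 -1.47, adjusted p = 0.0504), Gid8 (log2 -1.11, adjusted p = 0.0595), Inmt (log2 -0.86, adjusted p = 0.141), Pbrm1 (log2 -1.14, adjusted p = 0.0748), Gpx3 (log2 -1.01, adjusted p = 0.154) and Vwf (log2 -0.85, adjusted p = 0.121), while those of Insr and Fkbp2 remained. The changes of Ubl7, Pbrm1 and Dohh in that fit were close to those with all libraries.

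**Figure D3:**
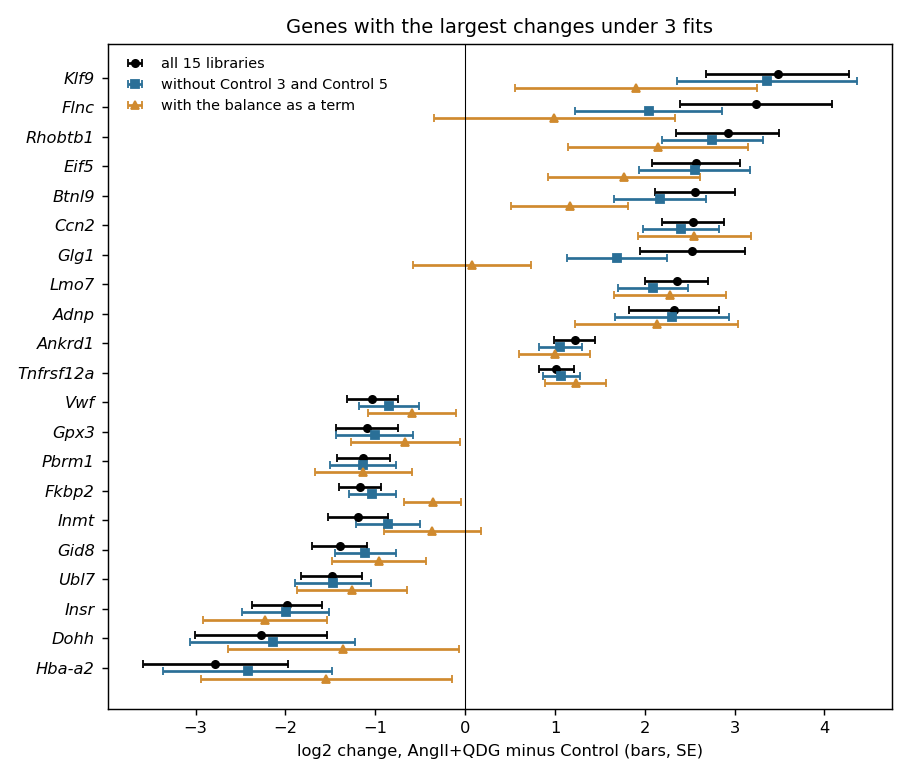
Log2 change with SE of 19 of the 20 genes with the largest changes and of Ankrd1 and Tnfrsf12a, from the fit to all 15 libraries, without Control 3 and Control 5, and with the short-against-long balance as a term. Ccn2 lies between 2.40 and 2.55 in the 3 fits, whereas Glg1 goes from 2.53 to 0.08; Sptb, listed at 0 in every Control library, is left out.

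The gene groups are described by how many tested members were called, against 15.5% higher and 3.15% lower over all genes, and by the median log2 change, against 0.18 over all genes. The lists and their members were chosen with earlier results of these data known, so the counts are descriptions and not independent tests. Most members named from a list are those with the smallest p, so a lack of overlap in them is partly a result of the choice. Each group's counts under 3 other scalings are given in the order quantile normalization, median scaling and removal of the length trend. The median over all genes was -0.032, -0.092 and -0.0098 under these, and 0.051 without Control 3 and Control 5. List medians in those settings are to be read against these values and not against 0. Median scaling moves every list median by the same amount, so a change of sign there is no change relative to all genes. Where calls lost without Control 3 and Control 5 are listed, the log2 change and adjusted p are from that fit, which has 3 Control libraries. Where at most 5 members were called in 1 direction, all are named unless stated. Lama4, Lamb1, Adamts9, Sptan1, Nr4a3, Klf2, Ppp3ca, Hspe1, Eif2ak3, Gclc, Txn1, Sdha, Irs2, Foxo1, Map1lc3a, Gabarap, Cflar, Kdr and Cldn5 are named on that account, after their values were seen.

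**Figure D4:**
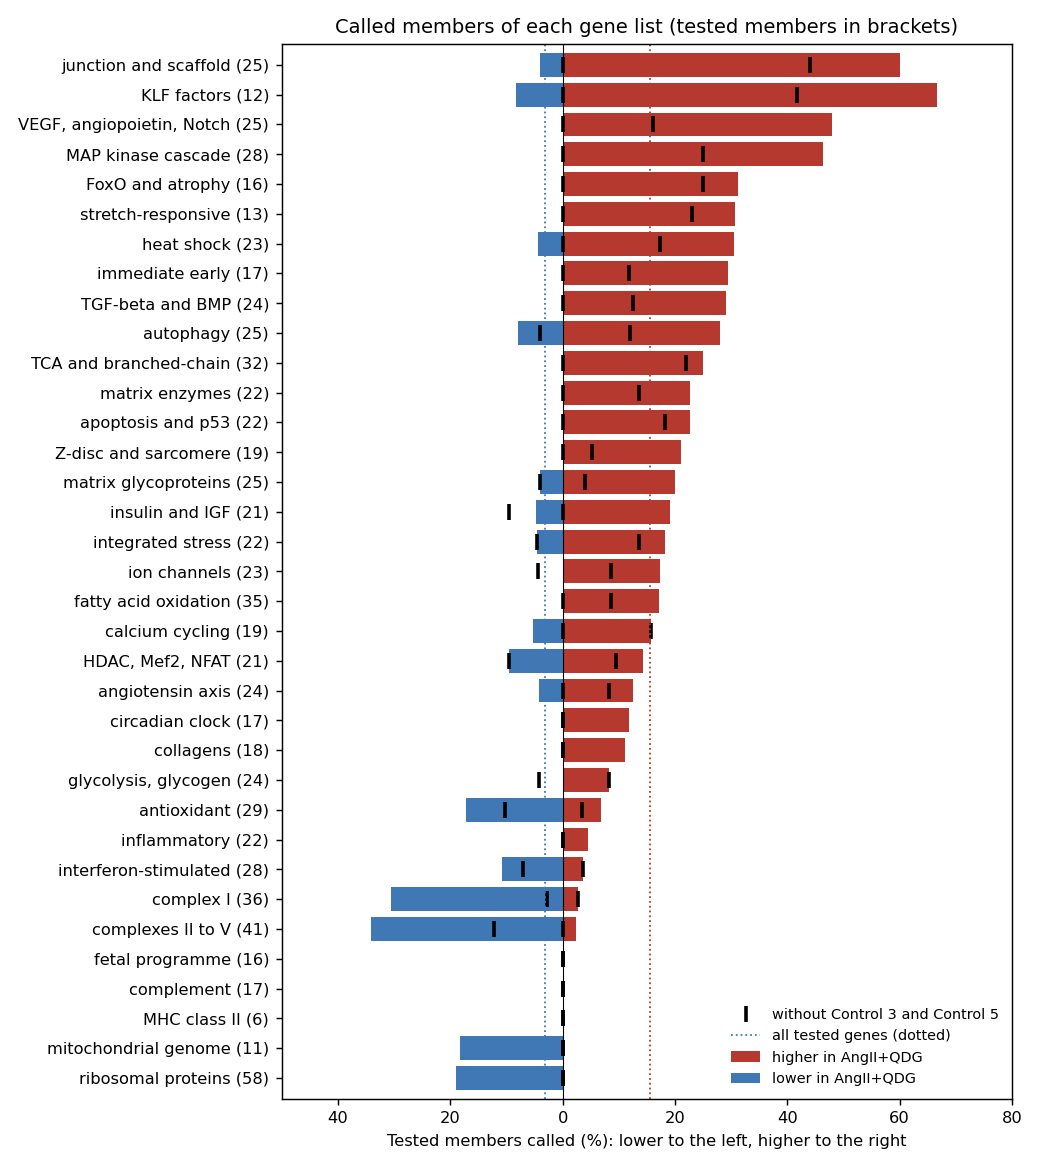
Percent of tested members of each gene list called higher (right) or lower (left) in AngII+QDG, with the number of tested members in brackets, the share over all genes as dotted lines, and the shares without Control 3 and Control 5 as ticks. Junction and scaffold genes and KLF factors have the longest bars to the right, and respiratory chain and ribosomal protein genes lie to the left.

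Mechanical load genes are taken first, with sequence before a RefSeq start of 4 of them. The motif GGAATG is bound by TEAD factors, partners of YAP, and was searched on both strands in the 250 bases before each start listed by RefSeq (GRCm38.p6). Of 28 called higher members of the stretch, Z-disc, junction and matrix glycoprotein lists, 20 had a listed start and 7 (35%) held the motif, against 12.8% of 8842 tested genes and 11.9% of 1401 higher genes with one. Genes with several listed starts had several windows, and a match is a description of the sequence alone. The members were picked by their calls in these data, from lists made with earlier results known. The shares were therefore not compared by a test, and whether TEAD factors act on these genes was not tested. The sequences run 5′ to 3′ on the strand of the gene, with the motif or its complement in capitals:
Vcl, chr14:20929148-20929397, plus strand: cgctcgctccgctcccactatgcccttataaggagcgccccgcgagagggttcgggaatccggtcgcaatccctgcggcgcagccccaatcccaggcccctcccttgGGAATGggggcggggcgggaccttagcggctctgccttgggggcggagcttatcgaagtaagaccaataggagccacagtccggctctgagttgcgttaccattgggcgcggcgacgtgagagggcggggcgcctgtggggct
Flnc, chr6:29433006-29433255, plus strand: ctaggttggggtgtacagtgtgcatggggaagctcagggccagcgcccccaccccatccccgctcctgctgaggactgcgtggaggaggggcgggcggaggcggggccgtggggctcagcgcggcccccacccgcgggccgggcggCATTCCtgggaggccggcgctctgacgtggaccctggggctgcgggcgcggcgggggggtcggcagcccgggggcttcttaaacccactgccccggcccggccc
Ccn1, chr3:145649986-145650235, minus strand: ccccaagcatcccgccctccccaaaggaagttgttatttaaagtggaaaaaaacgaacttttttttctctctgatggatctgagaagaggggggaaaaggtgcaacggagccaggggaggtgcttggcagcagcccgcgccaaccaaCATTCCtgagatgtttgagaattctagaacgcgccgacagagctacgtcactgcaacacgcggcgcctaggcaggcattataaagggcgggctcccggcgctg
Ankrd1, chr19:36120040-36120063, minus strand: actgccaaaGGAATGaccctctca
Ankrd1, chr19:36119953-36119976, minus strand: actaagtctGGAATGaaaattcac
Ankrd1 holds the motif in 2 places, of which only the surrounding bases are shown. Both places lie before the start listed by RefSeq. They are inside the gene as the GENCODE annotation lists it (chr19:36111961-36120099, minus strand), so they are not upstream of that start.

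Of 13 tested stretch-responsive genes 4 rose (median 0.35) and none fell, except 1 without Control 4 or AngII+QDG 4. Rises numbered 4, 3 and 3 and falls 0, 2 and 1 under the other scalings. Ankrd1, the cardiac ankyrin repeat protein that binds titin, stood at 487, 362, 370.2, 304 and 222 FPKM in Control 1 to 5. It stood at 753, 569, 1117, 894 and 711 FPKM in AngII+QDG 1 to 5 (1.22 ± 0.22, adjusted p = 0.00505), above every Control library, and at 797 ± 178 FPKM in AngII. Tnfrsf12a, the receptor of the cytokine TWEAK, was at 42.7, 62.1, 71.5, 46.9 and 42.3 FPKM in Control and 91.0, 86.0, 122, 132 and 107 FPKM in AngII+QDG (1.02 ± 0.19, adjusted p = 0.00548), without overlap. Its longest listed transcript of 984 nt lies in the class where falls outnumbered rises. Xirp1, an actin-binding protein of the intercalated disc, was at 5.16 to 19.4 against 22.05 to 31.9 FPKM (1.21 ± 0.27, adjusted p = 0.00929). Ankrd23, a titin-binding relative of Ankrd1, was at 122 to 205 against 184 to 391 FPKM (0.68 ± 0.20, adjusted p = 0.0306), and this call was lost without Control 3 or 5 or AngII+QDG 1, 3, 4 or 5 (adjusted p 0.0526 to 0.0712). With Control 3 and Control 5 left out, 3 of the 13 rose.

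Genes of junctions, costameres and membrane scaffolds held the most rises of the mechanical lists. Of 25 tested, 15 rose and 1 fell, with a median of 0.87 and 12, 11 and 9 rises and 1, 2 and 1 falls under the other scalings; without Control 3 and Control 5, 11 rose and 0 fell. Tjp1, the tight junction scaffold ZO-1 (chr7:65296165-65527781), stood at 0.479, 0.194, 0.805, 0.562 and 0 FPKM in Control 1 to 5 and 7.17, 3.58, 4.40, 5.64 and 5.93 FPKM in AngII+QDG 1 to 5 (2.17 ± 0.18, adjusted p = 1.86e-05). Vcl, vinculin, which links adhesion sites to actin, stood at 3.96, 2.64, 3.64, 5.79 and 2.61 FPKM in Control and 21.6, 15.8, 11.03, 11.04 and 13.4 FPKM in AngII+QDG (1.72 ± 0.25, adjusted p = 0.00195). Both were without overlap, and AngII held 5.17 ± 0.545 FPKM of Tjp1 and 12.7 ± 4.52 FPKM of Vcl. The fall was Sptan1, alpha-spectrin (8.15 to 23.6 against 3.01 to 11.7 FPKM, -1.08 ± 0.32, adjusted p = 0.0327), a call lost without Control 2, 3 or 5 or AngII+QDG 1, 3 or 5 (adjusted p 0.0525 to 0.0881) and with all named transcripts counted (log2 -0.47, adjusted p = 0.184). Members of this list have long transcripts (median 4630 nt), and of all tested genes of 4000 to 6000 nt 27.0% were called higher. The list was chosen with earlier results of these data known, so its share of rises is not an independent result.

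Among Z-disc and sarcomere genes, 4 of 19 rose (median 0.44): Flnc, Lmod2, Cmya5 and Mypn. Rises numbered 5, 3 and 2 and falls 0, 1 and 1 under the other scalings. Lmod2, leiomodin, which sets the length of thin filaments, was at 136, 133, 132, 172 and 95.2 FPKM in Control and 207, 392, 362, 294 and 366 FPKM in AngII+QDG (1.26 ± 0.18, adjusted p = 0.00195). Its groups did not overlap, with AngII at 242 ± 36.9 FPKM. Cmya5, myospryn, and Mypn, myopalladin, had log2 changes of 0.70, adjusted p = 0.0162, and 0.60, adjusted p = 0.0217. The call of Mypn was lost without Control 3 (adjusted p = 0.0518) and without AngII+QDG 1 (adjusted p = 0.0577). Without Control 3 and Control 5 only Lmod2 of the 4 passed, with Flnc (log2 2.04, adjusted p = 0.131), Cmya5 (log2 0.42, adjusted p = 0.0753) and Mypn (log2 0.31, adjusted p = 0.0801), and without Control 4 the count was 7.

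In the fit without further scaling, the classical markers of cardiac load and the fetal programme did not pass the test. None of 16 tested fetal programme genes was called by limma, 3 had an unadjusted p under 0.05, 1 was lower without AngII+QDG 3, and there were 1, 0 and 0 rises and 0, 2 and 0 falls under the other scalings. Nppa, atrial natriuretic peptide, stood at 465, 331, 315, 205 and 170.4 FPKM in Control 1 to 5 and 338, 211, 431, 428 and 258 FPKM in AngII+QDG 1 to 5 (log2 0.20, adjusted p = 0.691). Nppb, brain natriuretic peptide, stood at 436, 218, 353, 229 and 233 FPKM in Control and 89.1, 74.0, 570.0, 737 and 627 FPKM in AngII+QDG (log2 -0.006, adjusted p = 0.997). Its AngII+QDG libraries were divided, with 2 below and 3 above every Control library. Myh7, the fetal beta-myosin heavy chain, was at 15.7 to 73.5 against 52.0 to 133 FPKM (log2 0.95, adjusted p = 0.0892), Myh6 had a log2 change of -0.14, adjusted p = 0.766, and Acta1, skeletal alpha-actin, was at 121 to 231 against 129 to 547 FPKM (log2 0.55, adjusted p = 0.369). Myh7 passed with the mitochondrial genes left out before rescaling (log2 1.11, adjusted p = 0.048). It did not without Control 3 and Control 5 (log2 0.32, adjusted p = 0.473). In AngII, Nppa was at 479 ± 187, Nppb at 459.9 ± 339 and Acta1 at 517 ± 304 FPKM.

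Most collagen genes did not pass, and neither did most matricellular proteins and matrix enzymes, though Ccn2, Timp3 and Adamts1 rose without overlap. The share called higher in each of these lists lay around the 15.5% over all genes. Whether the lists differ from each other was not tested. Of 18 tested collagens, 2 rose (Col6a3 and Col8a1, median 0.34). Rises numbered 1, 0 and 0 under the other scalings, and the median turned to -0.057 with the length trend removed. Rises numbered 1, 0 and 0 under the other scalings, and the median turned to -0.057 with the length trend removed. Col1a1, the main fibrillar collagen chain, was at 3.70 to 13.8 FPKM in Control and 6.75 to 11.7 FPKM in AngII+QDG (log2 0.24, adjusted p = 0.611), and Col3a1 at 0.120 to 26.3 against 14.4 to 25.9 FPKM (log2 1.10, adjusted p = 0.361). Col6a3 was listed at 0 in all 5 Control libraries and at 0.124 to 1.93 FPKM in AngII+QDG, and Col8a1 was at 1.32 to 2.17 against 1.86 to 4.94 FPKM (0.80 ± 0.24, adjusted p = 0.0351). Col8a1 lost its call without any 1 library but Control 1 or 4 or AngII+QDG 2 (adjusted p 0.0545 to 0.0904), and neither collagen passed without Control 3 and Control 5.

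Among 25 matrix glycoproteins and matricellular proteins, 5 rose and 1 fell (median 0.30). Rises numbered 2, 1 and 2 and falls 1, 1 and 1 under the other scalings, and the median turned to -0.087 with the length trend removed. The rises were Ccn2, Ccn1, Lum, Lama4 and Lamb1. Ccn1, the relative of Ccn2 known as Cyr61, was at 16.0, 13.6, 8.09, 16.5 and 7.55 FPKM in Control and 14.5, 28.4, 32.9, 23.98 and 27.5 FPKM in AngII+QDG (1.00 ± 0.29, adjusted p = 0.0279), where 1 AngII+QDG library stayed within the Control range. Lum, the collagen-binding proteoglycan lumican, was at 9.97 to 12.02 against 13.3 to 22.1 FPKM (0.68 ± 0.18, adjusted p = 0.0188) without overlap. The laminin chains Lama4 and Lamb1 had log2 changes of 0.55, adjusted p = 0.0308, and 0.60, adjusted p = 0.0494. Hspg2, the basement membrane proteoglycan perlecan, fell (1.34 to 17.0 FPKM in Control against 0.336 to 2.45 in AngII+QDG, -2.08 ± 0.49, adjusted p = 0.0124), but its 1 listed transcript measures only 820 nt, a fragment of this large gene. Single libraries ended the calls of Ccn1 without Control 3 or 5 or AngII+QDG 2, 3 or 5 (adjusted p 0.0551 to 0.069), Lama4 without Control 3 or 5 or AngII+QDG 1, 3 or 4 (adjusted p 0.058 to 0.0754) and Lamb1 without any 1 library but Control 1, 2 or 4 (adjusted p 0.0607 to 0.118). The count of rises was 2 without Control 3 or 5 or AngII+QDG 3, 3 without AngII+QDG 1, 2, 4 or 5 and 8 without Control 4, and 1 without Control 3 and Control 5 (Ccn2).

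Matrix enzymes and their inhibitors rose in 5 of 22 tested members (median 0.25), of which 4 are named here. Rises numbered 3, 3 and 3 under the other scalings. The median was -0.016 under median scaling (-0.092 over all genes) and -0.048 with the length trend removed (-0.0098 over all genes). Timp3, a tissue inhibitor of metalloproteinases (chr10:86300372-86349506), stood at 20.9, 28.3, 25.05, 26.6 and 21.4 FPKM in Control and 49.8, 46.9, 43.4, 76.4 and 62.3 FPKM in AngII+QDG (1.14 ± 0.15, adjusted p = 0.00118). Adamts1, a secreted protease of proteoglycans, stood at 4.22, 2.89, 2.78, 3.41 and 1.73 FPKM in Control and 7.86, 7.29, 8.95, 12.1 and 11.5 FPKM in AngII+QDG (1.40 ± 0.20, adjusted p = 0.00185). In both, every AngII+QDG library lay above every Control library, and AngII held 47.6 ± 5.05 FPKM of Timp3 and 10.1 ± 2.54 FPKM of Adamts1. Plod2, a collagen lysyl hydroxylase (0.60 ± 0.15, adjusted p = 0.0149), and Adamts9 (0.90 ± 0.27, adjusted p = 0.0351) rose less. Adamts9 lost its call without any 1 library but Control 2 or 5 or AngII+QDG 2 (adjusted p 0.0514 to 0.0817). Timp1 read 1.10 to 6.41 against 1.37 to 2.58 FPKM (log2 -0.36, adjusted p = 0.466), and 3 of the 5 rises, Timp3 and Adamts1 among them, remained without Control 3 and Control 5.

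**Figure D5:**
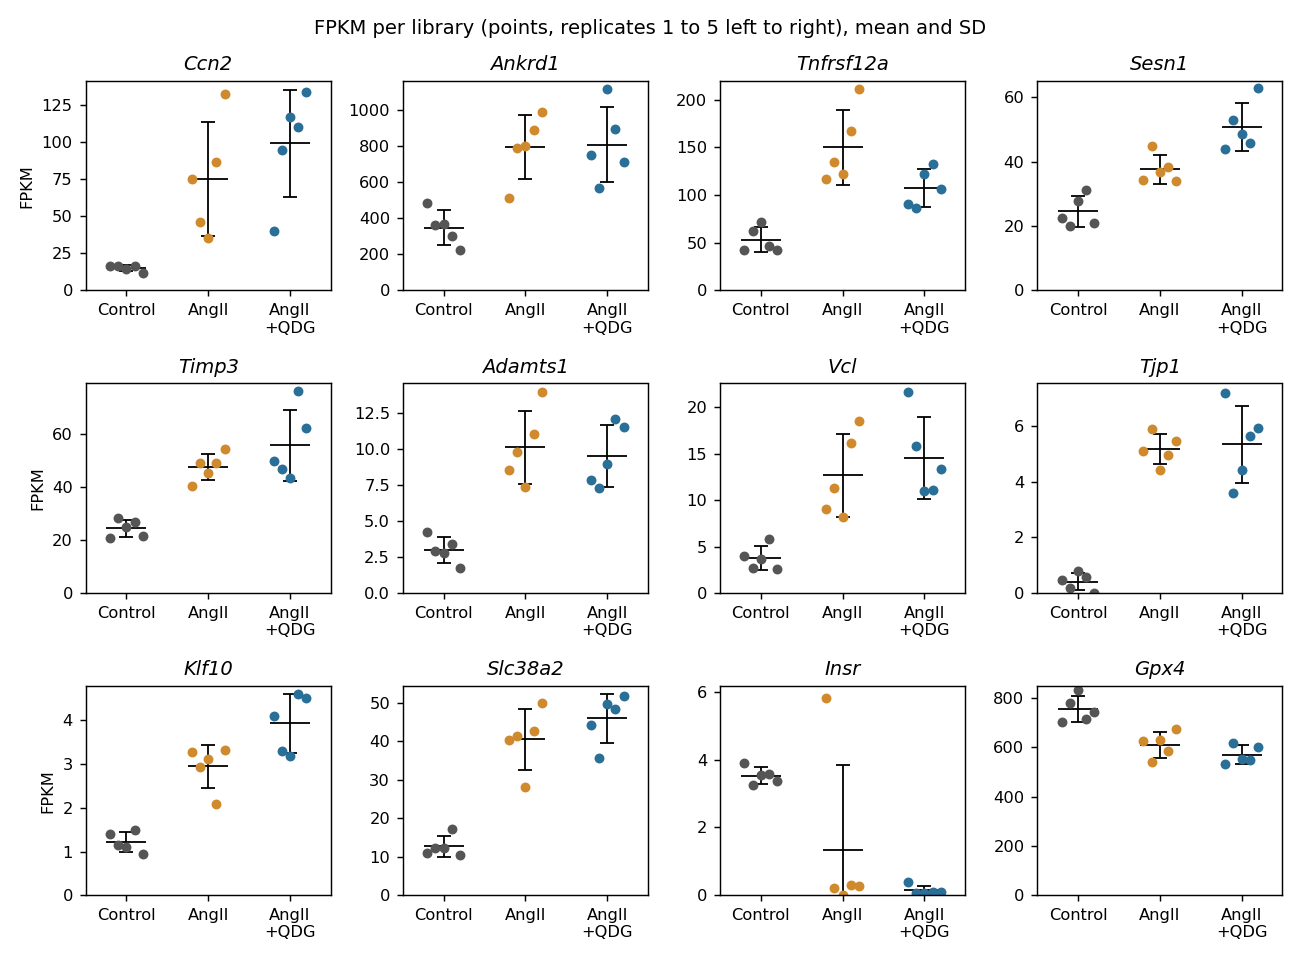
FPKM in each library of 12 genes, 10 that rose and 2 that fell (Insr and Gpx4), with group mean and SD on axes that start at 0. The genes were picked for the plot from named genes whose 5 Control and 5 AngII+QDG libraries do not overlap, and 1 AngII library of Insr lies above Control.

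In the TGF-beta and BMP pathway the activin receptor Acvr2a rose among others, and the ligand Tgfb1 did not pass the test. Of 24 tested members 7 rose and none fell (median 0.34), but the count was 2 without AngII+QDG 4 and 3 without Control 3 or 5 or AngII+QDG 1 or 5, and 3 without Control 3 and Control 5. Rises numbered 1, 1 and 1 under the other scalings. The list's median longest transcript was 5153 nt, and its share of rises (29.2%) was near the 27.0% over all tested genes of 4000 to 6000 nt. Tgfb1, the ligand, was at 12.5 to 20.3 FPKM in Control and 12.4 to 16.8 FPKM in AngII+QDG (log2 -0.28, adjusted p = 0.296). Acvr2a, an activin receptor, was at 1.11, 0.832, 1.19, 1.28 and 0.794 FPKM in Control and 3.02, 1.72, 1.80, 2.31 and 2.51 FPKM in AngII+QDG (0.67 ± 0.15, adjusted p = 0.00861). Smad4, the common Smad, was at 0 to 0.620 against 0.815 to 1.998 FPKM (1.08 ± 0.17, adjusted p = 0.00213), but with all named transcripts counted its change was 0.47 and not called (adjusted p = 0.154). Ltbp1, which stores latent TGF-beta in the matrix, and Tgfbr3, betaglycan, had log2 changes of 0.49, adjusted p = 0.0229, and 0.53, adjusted p = 0.0301. Their calls were lost for Ltbp1 without Control 2 or AngII+QDG 4 (adjusted p 0.0532 to 0.0565) and Tgfbr3 without Control 3 or 5 or AngII+QDG 1, 4 or 5 (adjusted p 0.0555 to 0.0705).

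Angiotensin signalling genes were called at shares near those over all genes, with 12.5% higher and 4.17% lower. Agtr1a, the type 1 receptor, was at 10.2, 10.1, 9.58, 11.4 and 0.176 FPKM in Control and 3.38, 13.4, 13.9, 8.56 and 10.1 FPKM in AngII+QDG (log2 0.48, adjusted p = 0.578), with Control 5 far below the rest. Of 24 tested members, 3 rose and 1 fell (median 0.27). Rises numbered 2, 1 and 0 and falls 2, 2 and 2 under the other scalings, and the median turned to -0.027 with the length trend removed. Gnaq, the G protein alpha subunit downstream of the receptor, rose (1.60 to 2.52 FPKM in Control against 3.16 to 4.65 in AngII+QDG, 0.69 ± 0.14, adjusted p = 0.00625). The protein kinases C Prkce (0.60 ± 0.14, adjusted p = 0.00966) and Prkca (0.52 ± 0.17, adjusted p = 0.0412) rose, and Rgs2, a brake on Gq, fell (7.65 to 15.001 FPKM in Control against 5.05 to 8.62 in AngII+QDG, -0.64 ± 0.21, adjusted p = 0.0478). The calls of Prkca and Rgs2 were not stable, being lost for Prkca without any 1 library but Control 1 or 4 or AngII+QDG 5 (adjusted p 0.0518 to 0.091) and Rgs2 without any 1 library but Control 5 (adjusted p 0.0503 to 0.117). Gnaq and Prkce passed also without Control 3 and Control 5, where Prkca and Rgs2 did not (adjusted p = 0.21 and 0.0933).

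MAP kinase cascade genes rose in 13 of 28 tested members and none fell (median 0.51). The list's median longest transcript was 4151 nt, and 46.4% of its members rose, against 27.0% of all tested genes of 4000 to 6000 nt. Rises numbered 9, 8 and 5 and falls 0, 2 and 0 under the other scalings. Map3k5, the stress kinase ASK1, was at 3.91, 3.88, 2.90, 4.79 and 2.67 FPKM in Control and 6.85, 6.35, 6.59, 6.16 and 6.03 FPKM in AngII+QDG (0.69 ± 0.12, adjusted p = 0.00445). The phosphatases Dusp8 (2.63 to 6.25 against 7.16 to 9.71 FPKM, 0.99 ± 0.19, adjusted p = 0.00614) and Dusp16 (1.01 to 1.92 against 2.26 to 3.99 FPKM, 0.84 ± 0.18, adjusted p = 0.00766), which switch off JNK and p38, rose as well. Map3k6, a partner of ASK1, rose (1.31 to 3.63 FPKM in Control against 4.25 to 8.11 in AngII+QDG, 0.97 ± 0.19, adjusted p = 0.00643). The groups did not overlap for any of these 4, which were named for the smallest p. In the list, 11 of 28 tested members had every AngII+QDG library above every Control library, against 12.2% of all tested genes. The count was 8 without AngII+QDG 1 and 7 without Control 3 and Control 5.

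Of the transcription factor lists, the KLF family had the largest share of rises. Of 12 tested members 8 rose and 1 fell (median 0.74), with 5 rises without Control 3 and Control 5. The list's median longest transcript was 4155.5 nt, and 66.7% of its members rose, against 27.0% of all tested genes of 4000 to 6000 nt. Rises numbered 6, 6 and 5 and falls 1, 1 and 1 under the other scalings. Klf10, a TGF-beta inducible factor (chr15:38291463-38300706), stood at 1.40, 1.15, 1.10, 1.49 and 0.947 FPKM in Control 1 to 5 and 4.08, 3.28, 3.17, 4.59 and 4.49 FPKM in AngII+QDG 1 to 5 (1.15 ± 0.13, adjusted p = 0.000566). Its AngII+QDG values were all above Control, and AngII held 2.94 ± 0.496 FPKM. Klf13 (0.705 to 4.55 against 6.09 to 7.49 FPKM, 1.19 ± 0.23, adjusted p = 0.00549), Klf6 (6.26 to 8.14 against 11.04 to 14.1 FPKM, 0.75 ± 0.15, adjusted p = 0.00613) and Klf11 (0.696 to 1.44 against 2.01 to 3.01 FPKM, 0.72 ± 0.13, adjusted p = 0.00445) followed. Klf2, a flow-induced endothelial factor, fell (37.2 to 68.1 FPKM in Control against 25.7 to 35.5 in AngII+QDG, -0.67 ± 0.18, adjusted p = 0.021), and did not pass without Control 3 and Control 5 (adjusted p = 0.0658). Its AngII level was 52.5 ± 13.4 FPKM.

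Immediate early genes rose in 5 of 17 tested members (median 0.37). Rises numbered 2, 2 and 2 under the other scalings. Ier5, a regulator of heat shock factor, was at 4.90, 5.07, 3.17, 4.77 and 2.41 FPKM in Control and 7.94, 14.4, 17.4, 17.5 and 14.3 FPKM in AngII+QDG (1.59 ± 0.26, adjusted p = 0.0033). Atf3, a stress-induced bZIP factor, was at 0, 1.37, 3.56, 1.99 and 0.692 FPKM in Control and 2.84, 33.2, 8.66, 11.4 and 35.1 FPKM in AngII+QDG (2.67 ± 0.68, adjusted p = 0.0166), with the highest values in AngII+QDG 2 and 5 and AngII+QDG 1 within the Control range. Btg2, an antiproliferative factor, Egr1 and Nr4a3 had log2 changes of 1.05, adjusted p = 0.0328, 1.01, adjusted p = 0.0351, and 0.65, adjusted p = 0.0361. Calls were lost for Btg2 without any 1 library but Control 2 or 4 or AngII+QDG 1 (adjusted p 0.0518 to 0.0744), Egr1 without any 1 library but Control 1 or 4 or AngII+QDG 1 (adjusted p 0.0513 to 0.0821) and Nr4a3 without any 1 library but AngII+QDG 1 or 3 (adjusted p 0.0527 to 0.0849). The count was 2 without Control 3 or 5 or AngII+QDG 2, 4 or 5 and 3 without Control 1 or AngII+QDG 3, and 2 (Ier5 and Atf3) without Control 3 and Control 5.

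Among class IIa deacetylases and cardiac transcription factors, 3 of 21 rose and 2 fell (median 0.19). Rises numbered 2, 2 and 1 and falls 2, 3 and 3 under the other scalings, and the median turned to -0.042 under quantile normalization, -0.074 under median scaling and -0.17 with the length trend removed. Hdac9, a deacetylase that holds Mef2 in check, was at 0.0242, 0.0239, 0, 0.127 and 0 FPKM in Control and 2.62, 2.15, 2.73, 1.87 and 3.36 FPKM in AngII+QDG (adjusted p = 4.07e-05), so it was near 0 in Control, and AngII held 2.35 ± 0.805 FPKM. Tbx20, a cardiac T-box factor, rose (1.84 to 4.44 FPKM in Control against 4.62 to 9.15 in AngII+QDG, 0.94 ± 0.20, adjusted p = 0.00765), and Ppp3ca, calcineurin A alpha, rose by less (0.36 ± 0.11, adjusted p = 0.0316). Nkx2-5, the cardiac homeobox factor, fell (49.7 to 71.9 FPKM in Control against 38.0 to 51.3 in AngII+QDG, -0.40 ± 0.11, adjusted p = 0.0234). Yap1, the partner of TEAD factors, was at 13.96, 9.24, 6.96, 13.9 and 7.98 FPKM in Control and 3.37, 9.90, 3.73, 3.01 and 3.31 FPKM in AngII+QDG (-1.08 ± 0.30, adjusted p = 0.0238), where AngII+QDG 2 lay within the Control range and AngII held 9.83 ± 3.42 FPKM. Calls were lost for Ppp3ca without Control 1, 2 or 3 or AngII+QDG 1, 2 or 5 (adjusted p 0.0526 to 0.0795), Nkx2-5 without Control 2 or AngII+QDG 5 (adjusted p 0.0564 to 0.0608) and Yap1 without Control 1 or AngII+QDG 1, 4 or 5 (adjusted p 0.05 to 0.0599). The calls without Control 3 and Control 5 were the same but for Ppp3ca (adjusted p = 0.11).

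Calcium cycling genes rose in 3 of 19 tested members and 1 fell (median 0.35). Rises numbered 4, 2 and 1 and falls 0, 1 and 1 under the other scalings. Camk2d, the cardiac calcium/calmodulin kinase, was at 1.45, 2.29, 1.44, 2.79 and 0.895 FPKM in Control and 9.79, 4.61, 7.33, 6.35 and 6.72 FPKM in AngII+QDG (1.53 ± 0.32, adjusted p = 0.00784). Itpr1, an IP3 receptor, rose (0.817 to 1.28 FPKM in Control against 1.65 to 4.52 in AngII+QDG, 1.03 ± 0.20, adjusted p = 0.00597), and Asph, whose gene also codes junctate and junctin (40.7 to 59.8 against 67.1 to 81.8 FPKM, 0.53 ± 0.12, adjusted p = 0.0091). S100a1, a calcium sensor of the sarcoplasmic reticulum, fell (898 to 1450.0 FPKM in Control against 776 to 962 in AngII+QDG, -0.42 ± 0.11, adjusted p = 0.0221), a call lost without Control 3 (adjusted p = 0.0512) and without AngII+QDG 1 (adjusted p = 0.0599). Atp2a2, the calcium pump SERCA2, was at 1199.6 to 2278 against 1875 to 2341 FPKM (log2 0.35, adjusted p = 0.0806). It passed under quantile normalization (log2 0.59, adjusted p = 0.0358) and with the mitochondrial genes left out before rescaling (log2 0.52, adjusted p = 0.027). Under median scaling it did not (log2 0.086, adjusted p = 0.595). Leaving out 1 library gave it adjusted p from 0.0102 to 0.163. Without Control 4 there were 6 rises, and without Control 3 and Control 5 there were 3 and S100a1 did not pass (adjusted p = 0.115).

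Among 23 cardiac ion channels 4 potassium channel genes rose and none fell (median 0.17). Rises numbered 3, 2 and 2 and falls 0, 3 and 2 under the other scalings, and the median turned to -0.10 under median scaling, -0.11 with the length trend removed and -0.11 without Control 3 and Control 5. Kcnj12, an inward rectifier, was at 2.59, 2.68, 1.83, 2.89 and 0 FPKM in Control and 5.68 to 7.87 FPKM in AngII+QDG (1.49 ± 0.30, adjusted p = 0.00643). Kcnd2, of the transient outward current, rose (0.588 to 1.48 FPKM in Control against 1.52 to 2.75 in AngII+QDG, 0.74 ± 0.16, adjusted p = 0.00832). Kcnj5, of the acetylcholine-gated current, and Kcna5, of the ultrarapid current, had log2 changes of 1.60, adjusted p = 0.0119, and 0.58, adjusted p = 0.0224. Kcna5 lost its call without Control 3 or AngII+QDG 4 (adjusted p 0.0545 to 0.0557), and neither Kcnj5 nor Kcna5 passed without Control 3 and Control 5 (adjusted p = 0.08 and 0.106), where 2 channels rose and 1 fell. Without Control 4, 7 channels rose.

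Genes of the respiratory chain, with a median longest transcript of 1014.5 nt in complex I, fell in many members. Of 36 tested nuclear subunits of complex I, 11 fell and 1 rose (median -0.23), and of 41 in complexes II to V, 14 fell and 1 rose (median -0.27). Under the other scalings complex I had 1, 1 and 1 rises and 4, 19 and 8 falls, and complexes II to V had 2, 0 and 0 rises and 6, 21 and 15 falls. Ndufb7, an accessory subunit of complex I, fell (572 to 862 FPKM in Control against 426 to 519.7 in AngII+QDG, -0.55 ± 0.11, adjusted p = 0.00643). Cox5b, of cytochrome c oxidase, stood at 918, 862, 1079, 799 and 1044 FPKM in Control and 697, 706, 660.4, 629 and 636 FPKM in AngII+QDG (-0.49 ± 0.089, adjusted p = 0.00471), without overlap and with AngII at 664 ± 42.8 FPKM. Uqcr11 of complex III (-0.60 ± 0.13, adjusted p = 0.00959) and Atp5d of ATP synthase (-0.62 ± 0.14, adjusted p = 0.00997) fell as well. The rises were catalytic subunits with longer transcripts. Ndufs1, the largest subunit of complex I, was at 30.8, 106, 56.5, 64.7 and 111 FPKM in Control and 218, 172, 174, 173 and 224 FPKM in AngII+QDG (1.4996 ± 0.31, adjusted p = 0.007). Sdha of complex II was at 219 to 425 against 386 to 458 FPKM (0.48 ± 0.13, adjusted p = 0.0249), a call lost without AngII+QDG 1 or 3 (adjusted p 0.0501 to 0.0587).

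These counts depended on the libraries. In complex I the falls were 2 without AngII+QDG 1, 5 without AngII+QDG 5, 6 without Control 2 or 3 and 7 without AngII+QDG 4. Without Control 3 and Control 5 there were 1 fall and 1 rise in complex I and 5 falls and 0 rises in complexes II to V. Of the 11 tested genes of the mitochondrial genome, mt-Co2 (-0.39 ± 0.11, adjusted p = 0.0246) and mt-Cytb (-0.24 ± 0.071, adjusted p = 0.0294) fell, with 0, 2 and 0 falls under the other scalings. Those calls were lost for mt-Co2 without Control 3 or AngII+QDG 1 or 3 (adjusted p 0.0514 to 0.0612) and mt-Cytb without Control 1 or 5 or AngII+QDG 1 or 3 (adjusted p 0.0521 to 0.0784), and neither remained without Control 3 and Control 5 (adjusted p = 0.114 and 0.1). The mitochondrial genes took up 27.4% of all FPKM in Control and 28.3% in AngII+QDG (exact permutation test, two-sided, n = 5, adjusted p = 0.746).

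Cytosolic ribosomal protein genes, with a median longest transcript of 1107.5 nt, fell in 11 of 58 tested members and none rose (median -0.28). Falls numbered 3, 29 and 6 under the other scalings. Rplp2, of the ribosomal stalk, fell (276 to 348 FPKM in Control against 204 to 253 in AngII+QDG, -0.37 ± 0.10, adjusted p = 0.0234). The count of falls was 2 without Control 3 or AngII+QDG 1 or 5, 3 without Control 2, 6 without Control 5 or AngII+QDG 2 or 3 and 21 without Control 4, and 0 without Control 3 and Control 5. Rplp2 lost its call without Control 2 or 3 or AngII+QDG 1 or 5 (adjusted p 0.0532 to 0.064).

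Genes of fatty acid use rose at a share near that over all genes (17.1%), and glycolysis genes at a lower one (8.33%). Of 35 tested genes of fatty acid uptake and oxidation, 6 rose and none fell (median 0.32). Rises numbered 8, 2 and 3 and falls 0, 4 and 0 under the other scalings. Pdk4, the kinase that shuts pyruvate dehydrogenase, was at 15.3, 17.7, 18.6, 38.6 and 9.57 FPKM in Control and 79.7, 43.5, 36.9, 49.8 and 37.2 FPKM in AngII+QDG (1.35 ± 0.29, adjusted p = 0.00892), where 2 AngII+QDG libraries lay below Control 4. Esrrb, an estrogen-related receptor, rose (1.91 to 3.81 FPKM in Control against 5.36 to 7.12 in AngII+QDG, 0.91 ± 0.14, adjusted p = 0.00254), and Acadm, medium-chain acyl-CoA dehydrogenase (298 to 469.6 against 457 to 506 FPKM, 0.42 ± 0.11, adjusted p = 0.0181). The count was 3 without Control 1, 3 or 5 or AngII+QDG 3 and 11 without Control 4, and 3 without Control 3 and Control 5.

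Genes of the citric acid cycle and of the breakdown of branched-chain amino acids held 8 rises and no fall among 32 tested (median 0.27), 7 without Control 3 and Control 5 and 5 without AngII+QDG 1 or 5. Rises numbered 10, 3 and 5 and falls 0, 1 and 0 under the other scalings. Mut, methylmalonyl-CoA mutase, was at 12.2, 11.5, 14.3, 16.4 and 8.45 FPKM in Control and 25.2, 23.6, 22.3, 21.2 and 25.3 FPKM in AngII+QDG (0.88 ± 0.14, adjusted p = 0.00314). Dbt, a subunit of the branched-chain ketoacid dehydrogenase, rose (9.06 to 12.4 FPKM in Control against 13.7 to 19.2 in AngII+QDG, 0.60 ± 0.13, adjusted p = 0.00761). Dld, the lipoamide dehydrogenase shared by these complexes (0.51 ± 0.11, adjusted p = 0.00696), and Pdha1, of pyruvate dehydrogenase (0.74 ± 0.16, adjusted p = 0.00803), rose too. All 4 were without overlap between the groups, but they were named for the smallest p. In the list, 4 of 32 tested members had every AngII+QDG library above every Control library, near the 12.2% over all tested genes. In glycolysis and glycogen metabolism 2 of 24 rose (median 0.091): Pfkfb2, the cardiac activator of phosphofructokinase (2.63 to 3.69 against 4.66 to 9.03 FPKM, 1.00 ± 0.20, adjusted p = 0.0063), and Hk2, hexokinase 2 (5.61 to 28.7 against 31.5 to 38.8 FPKM, 1.00 ± 0.31, adjusted p = 0.0391). Rises numbered 2, 1 and 0 and falls 0, 5 and 0 under the other scalings, and the median turned to -0.18 under median scaling, -0.072 with the length trend removed and -0.051 without Control 3 and Control 5. Hk2 lost its call without Control 5 or AngII+QDG 1, 2, 3, 4 or 5 (adjusted p 0.0611 to 0.0883), and without Control 3 and Control 5 (adjusted p = 0.0823), where 2 rose and 1 fell.

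In insulin and growth factor signalling the receptor transcript fell, and the share of rises (19.0%) was near that over all genes. Besides the fall of Insr, 4 of 21 tested members rose (median 0.23). Rises numbered 1, 1 and 0 and falls 3, 3 and 2 under the other scalings, and the median turned to -0.036 under median scaling and -0.12 with the length trend removed. The rises with all libraries included Pik3ca, a PI3 kinase catalytic subunit (1.10 ± 0.28, adjusted p = 0.0179), Igfbp5, which binds insulin-like growth factors (0.71 ± 0.22, adjusted p = 0.0393), and the receptor substrate Irs2 (0.48 ± 0.15, adjusted p = 0.0396). None of these 3 passed without Control 3 and Control 5 (adjusted p 0.108 to 0.193), where 2 of the list fell, and single libraries ended the calls of Pik3ca without AngII+QDG 1 (adjusted p = 0.0503), Igfbp5 without Control 3 or 5 or AngII+QDG 1, 4 or 5 (adjusted p 0.0699 to 0.0959) and Irs2 without any 1 library but Control 4 or AngII+QDG 1 or 2 (adjusted p 0.0591 to 0.0922). FoxO factors and atrophy genes rose in 5 of 16 tested members (median 0.40). Rises numbered 2, 2 and 2 under the other scalings. Sesn1, a sestrin that restrains mTORC1, was at 22.5, 20.003, 27.9, 31.3 and 21.1 FPKM in Control and 43.8, 52.9, 48.7, 45.8 and 62.9 FPKM in AngII+QDG (1.03 ± 0.14, adjusted p = 0.00141), without overlap. Foxo3, a factor restrained by insulin signalling, rose (3.58 to 6.81 FPKM in Control against 8.92 to 11.2 in AngII+QDG, 0.88 ± 0.15, adjusted p = 0.00396), and Fbxo30, a ubiquitin ligase subunit (1.74 to 2.18 against 3.01 to 4.51 FPKM, 0.58 ± 0.11, adjusted p = 0.0061). The cell cycle brake Cdkn1b (0.87 ± 0.25, adjusted p = 0.0269) and Foxo1 (0.37 ± 0.11, adjusted p = 0.034) lost their calls for Cdkn1b without Control 2 or 5 or AngII+QDG 1, 3 or 5 (adjusted p 0.057 to 0.0681) and Foxo1 without Control 3 or 5 or AngII+QDG 1, 4 or 5 (adjusted p 0.0575 to 0.0891). The count was 3 without Control 5 or AngII+QDG 5, and 4 without Control 3 and Control 5, where Foxo1 did not pass (adjusted p = 0.148).

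Autophagy genes rose in 7 of 25 tested members and 2 fell (median 0.29). Rises numbered 3, 3 and 2 and falls 0, 3 and 1 under the other scalings. Fundc1, a mitophagy receptor, was at 6.01, 5.34, 6.27, 7.17 and 5.49 FPKM in Control and 10.6, 8.93, 9.79, 10.6 and 11.8 FPKM in AngII+QDG (0.69 ± 0.11, adjusted p = 0.00317). Optn, the adaptor optineurin, rose (7.72 to 18.4 FPKM in Control against 14.8 to 26.4 in AngII+QDG, 0.98 ± 0.20, adjusted p = 0.00665). The falls were Map1lc3a (-0.43 ± 0.12, adjusted p = 0.0261) and Gabarap (-0.41 ± 0.12, adjusted p = 0.0293), both coding ubiquitin-like proteins of the autophagosome. The rises were 2 without AngII+QDG 1, 3 without AngII+QDG 5 and 4 without Control 2 or 5, and the falls were lost for Map1lc3a without Control 2 or 3 or AngII+QDG 1 or 5 (adjusted p 0.0619 to 0.068) and Gabarap without Control 2, 3 or 5 or AngII+QDG 1, 3 or 5 (adjusted p 0.0556 to 0.0771). With Control 3 and Control 5 left out, 3 rose and 1 (Map1lc3a) fell. Of 17 circadian clock genes 2 rose, Cry1 (0.753 to 1.97 against 2.15 to 3.61 FPKM, 0.69 ± 0.16, adjusted p = 0.0101) and Clock (0.390 to 1.38 against 1.62 to 2.59 FPKM, 0.90 ± 0.22, adjusted p = 0.0137), neither without Control 3 and Control 5 (adjusted p = 0.0588 and 0.0759). Without Control 4 the clock count was 5, and there were 1, 2 and 1 rises and 0, 1 and 0 falls under the other scalings. The time of day of collection is not given in the labels.

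Among stress response genes rises outnumbered falls, as they did over all genes. Integrated stress genes rose at a share (18.2%) near the 15.5% over all genes, and heat shock genes at 30.4%. The falls (1 in each of 2 lists) were also at a share near that over all genes. Of 23 tested heat shock genes 7 rose and 1 fell (median 0.35), with 4 without AngII+QDG 1 and 4 rises without Control 3 and Control 5. Rises numbered 5, 3 and 1 and falls 0, 1 and 0 under the other scalings. Hspd1, the mitochondrial chaperonin HSP60, was at 10.6, 12.2, 11.2, 30.1 and 25.6 FPKM in Control and 47.5, 114, 42.8, 105 and 79.9 FPKM in AngII+QDG (2.09 ± 0.42, adjusted p = 0.00677), without overlap, with AngII at 39.4 ± 30.4 FPKM. Its partner Hspe1, whose gene lies beside it and shares its promoter, fell (150.1 to 205 FPKM in Control against 131 to 159.6 in AngII+QDG, -0.28 ± 0.093, adjusted p = 0.0494), a call lost without any 1 library but Control 1 (adjusted p 0.05 to 0.118). The cochaperones Dnaja1 (0.74 ± 0.16, adjusted p = 0.00941) and Hspa4 (0.51 ± 0.12, adjusted p = 0.0105) rose. In the integrated stress response 4 of 22 rose and 1 fell (median 0.22). Rises numbered 2, 2 and 1 and falls 1, 2 and 1 under the other scalings, and the median turned to -0.024 under quantile normalization and -0.047 under median scaling. Slc38a2, an amino acid transporter (chr15:96687392-96699730), stood at 11.1, 12.4, 12.3, 17.4 and 10.6 FPKM in Control 1 to 5 and 44.4, 35.7, 49.6, 48.4 and 51.7 FPKM in AngII+QDG 1 to 5 (1.78 ± 0.16, adjusted p = 4.07e-05), each above every Control library. The ER stress sensors Ern1 (0.66 ± 0.13, adjusted p = 0.00593) and Eif2ak3 (0.42 ± 0.13, adjusted p = 0.0332) and the serine synthesis enzyme Psat1 (0.48 ± 0.13, adjusted p = 0.0202) rose, and Chac1, a glutathione-degrading enzyme, fell (-0.63 ± 0.18, adjusted p = 0.0268). Calls were lost for Eif2ak3 without Control 2, 3 or 5 or AngII+QDG 1, 4 or 5 (adjusted p 0.0514 to 0.0864) and Chac1 without Control 3 or AngII+QDG 1, 4 or 5 (adjusted p 0.052 to 0.0713).

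Antioxidant genes fell in 5 of 29 tested members and rose in 2 (median 0.11). Rises numbered 2, 1 and 1 and falls 3, 11 and 3 under the other scalings, and the median turned to -0.037 under quantile normalization, -0.16 under median scaling, -0.10 with the length trend removed and -0.068 without Control 3 and Control 5. Gpx4, the lipid peroxide reductase, was at 704, 779.6, 835, 714 and 745 FPKM in Control and 534, 619, 552, 548 and 602 FPKM in AngII+QDG (-0.40 ± 0.081, adjusted p = 0.00643), without overlap. Mt1, a metallothionein (-0.68 ± 0.16, adjusted p = 0.0132), Sod1 (-0.29 ± 0.085, adjusted p = 0.0296), Gpx3 and Txn1, thioredoxin (-0.38 ± 0.12, adjusted p = 0.0431), also fell. Txnip, which binds and inhibits thioredoxin, stood at 59.6, 75.04, 38.9, 92.4 and 45.7 FPKM in Control 1 to 5 and rose to 228, 215, 230.3, 140.4 and 152 FPKM in AngII+QDG 1 to 5 (1.65 ± 0.24, adjusted p = 0.00195). Gclc, of glutathione synthesis, rose as well (0.75 ± 0.24, adjusted p = 0.0427). Hmox1, heme oxygenase 1, was at 1.15 to 5.33 against 4.35 to 4.67 FPKM (log2 0.36, adjusted p = 0.376), with AngII at 9.29 ± 4.18 FPKM. Single libraries ended the calls of Sod1 without Control 2 or 3 or AngII+QDG 1, 3 or 5 (adjusted p 0.0524 to 0.0783), Txn1 without any 1 library but Control 1 or 4 (adjusted p 0.0564 to 0.11) and Gclc without Control 1 or 3 or AngII+QDG 1, 3, 4 or 5 (adjusted p 0.0557 to 0.106), and the falls were 2 without Control 2 or 3 or AngII+QDG 1, 3 or 5. With Control 3 and Control 5 left out, 3 fell and 1 (Txnip) rose.

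Apoptosis regulators rose in 5 of 22 tested members and none fell (median 0.25). Rises numbered 2, 1 and 0 and falls 1, 1 and 0 under the other scalings, and the median turned to -0.02 under median scaling and -0.042 with the length trend removed. Ccng1, a p53 target, was at 100.3, 98.8, 136, 135 and 99.4 FPKM in Control and 214, 174, 166, 160.3 and 229 FPKM in AngII+QDG (0.72 ± 0.14, adjusted p = 0.00548), without overlap. The others restrain cell death: Bcl2 (0.45 ± 0.10, adjusted p = 0.00765), Birc2 (0.50 ± 0.12, adjusted p = 0.0147), Mcl1 (0.38 ± 0.10, adjusted p = 0.0162) and Cflar (0.71 ± 0.20, adjusted p = 0.0252). Cflar lost its call without AngII+QDG 1, 4 or 5 (adjusted p 0.0504 to 0.0653), and Mcl1 without Control 3 and Control 5 (adjusted p = 0.0709).

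Vascular signalling genes rose in 12 of 25 tested members and none fell (median 0.53), and 4 rose without Control 3 and Control 5. The list's median longest transcript was 4654 nt, and 48.0% of its members rose, against 27.0% of all tested genes of 4000 to 6000 nt. Rises numbered 9, 8 and 5 and falls 0, 1 and 1 under the other scalings. Flt1, VEGF receptor 1 (chr5:147561604-147726011), stood at 9.57, 13.8, 9.01, 13.2 and 9.07 FPKM in Control 1 to 5 and 24.4, 17.9, 17.2, 26.7 and 21.999 FPKM in AngII+QDG 1 to 5 (0.93 ± 0.16, adjusted p = 0.00342). Its groups did not overlap, and AngII held 18.7 ± 2.69 FPKM. The co-receptors Nrp1 (0.226 to 0.673 against 1.23 to 1.82 FPKM, 0.74 ± 0.13, adjusted p = 0.00389) and Nrp2 (1.503 to 3.70 against 5.32 to 7.83 FPKM, 1.04 ± 0.23, adjusted p = 0.00873) rose, the latter not without Control 3 and Control 5 (adjusted p = 0.0567). Notch4, an endothelial Notch receptor, was at 3.02, 2.93, 0.806, 4.51 and 0.4999 FPKM in Control and 5.48 to 7.84 FPKM in AngII+QDG (1.32 ± 0.29, adjusted p = 0.00966), and Control 3 and Control 5 were its lowest libraries.

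Of immune genes, those stimulated by interferon held the falls. Of 28 tested interferon-stimulated genes 3 fell and 1 rose (median 0.013). Rises numbered 0, 0 and 0 and falls 3, 6 and 2 under the other scalings, and the median turned to -0.21 under quantile normalization, -0.26 under median scaling, -0.12 with the length trend removed and -0.13 without Control 3 and Control 5. Ifitm1, an interferon-induced membrane protein, was at 10.9, 5.48, 7.30, 6.90 and 6.90 FPKM in Control and 2.15, 3.78, 3.83, 3.78 and 3.34 FPKM in AngII+QDG (-0.94 ± 0.18, adjusted p = 0.00583). Its neighbour Ifitm3 (119.6 to 187 against 86.4 to 131 FPKM, -0.64 ± 0.16, adjusted p = 0.0145) and Ifi27 (-0.45 ± 0.14, adjusted p = 0.036) fell, and the GTPase Gbp7 rose (0.55 ± 0.12, adjusted p = 0.0085). Ifi27 lost its call without Control 1 or 2 or AngII+QDG 1, 3 or 5 (adjusted p 0.0687 to 0.0891), and Ifitm3 without Control 3 and Control 5 (adjusted p = 0.0572). No gene of MHC class II (6 tested, median -0.51, 1 at an unadjusted p under 0.05, 1 lower without Control 4) or complement (17 tested, 2 at an unadjusted p under 0.05) was called by limma. Cd74, the class II invariant chain, was at 181, 83.4, 80.3, 64.0 and 70.8 FPKM in Control and 45.4, 78.4, 69.5, 61.9 and 51.4 FPKM in AngII+QDG (log2 -0.55, adjusted p = 0.212). Of 22 cytokine, chemokine and adhesion genes Cxcl12 alone rose (0.66 ± 0.21, adjusted p = 0.0421), and lost its call without any 1 library but Control 2 or 4 or AngII+QDG 2 (adjusted p 0.0531 to 0.102).

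In whole hearts, fewer cells of a type and less RNA per cell cannot be told apart. Of 13 tested cardiomyocyte markers only Nkx2-5 fell and none rose, and their summed level was 38009 to 58868 FPKM over the Control libraries and 33761 to 52469 FPKM over AngII+QDG. Of 12 fibroblast markers 3 rose, Pdgfra (0.72 ± 0.16, adjusted p = 0.00972), Lum and Ogn (1.10 ± 0.31, adjusted p = 0.0268), with summed levels of 519 to 806 and 734 to 1013 FPKM. None of 7 activated fibroblast markers was called by limma (2 at an unadjusted p under 0.05), and Postn, periostin, read 6.43, 3.64, 1.24, 3.67 and 1.07 FPKM in Control and 6.91, 3.25, 9.89, 5.26 and 8.05 FPKM in AngII+QDG (log2 0.96, adjusted p = 0.0991). In this list 1 marker was higher without Control 1 and 1 without AngII+QDG 2. Leaving out 1 library gave Postn adjusted p from 0.0426 to 0.215. Of 13 endothelial markers Flt1, Tek (0.55 ± 0.16, adjusted p = 0.0284) and Kdr (0.83 ± 0.25, adjusted p = 0.0342) rose while Vwf and the tight junction claudin Cldn5 (-0.71 ± 0.24, adjusted p = 0.0497) fell. The summed endothelial level was 793 to 1191 FPKM in Control and 923 to 1302 FPKM in AngII+QDG. Single libraries ended the calls of Ogn without Control 5 or AngII+QDG 1, 4 or 5 (adjusted p 0.0503 to 0.0645), Tek without AngII+QDG 1, 4 or 5 (adjusted p 0.0616 to 0.0777), Kdr without Control 3 or 5 or AngII+QDG 1, 3, 4 or 5 (adjusted p 0.0505 to 0.0851) and Cldn5 without any 1 library but Control 1 or AngII+QDG 3 (adjusted p 0.0599 to 0.12).

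Of 11 macrophage markers the resident type scavenger receptors Cd163 (1.48 to 3.70 against 4.32 to 8.46 FPKM, 0.87 ± 0.19, adjusted p = 0.00818) and Mrc1 (1.11 to 2.29 against 3.23 to 4.34 FPKM, 0.85 ± 0.27, adjusted p = 0.0407) rose, while the list median was -0.15 and the sum 212 to 381 against 218 to 298 FPKM. Mrc1 lost its call without any 1 library but Control 1 or 4 (adjusted p 0.0547 to 0.0892). Lyve1, a marker of lymphatic endothelium and of some macrophages, rose (0.62 ± 0.14, adjusted p = 0.00873). Of 12 mural markers only Vtn, vitronectin, fell (-0.54 ± 0.17, adjusted p = 0.0387), and Stard10 fell among 5 atrial markers (-0.52 ± 0.13, adjusted p = 0.0142). Vtn lost its call without Control 2 or 3 or AngII+QDG 1, 2 or 5 (adjusted p 0.0719 to 0.0886). None of 4 neutrophil markers was called by limma (0 at an unadjusted p under 0.05), and S100a9, a neutrophil calcium-binding protein, read 8.66, 0, 9.68, 0 and 0 FPKM in Control and 5.41, 25.2, 0, 21.8 and 1.71 FPKM in AngII+QDG (log2 1.33, adjusted p = 0.432). Of 6 red cell genes Hba-a2 fell, with a summed level of 3805 to 12238 FPKM in Control and 2706 to 9487 FPKM in AngII+QDG, and none of 5 mesothelial and neural markers was called by limma (1 at an unadjusted p under 0.05). The part of these cell types in the results above was not tested. The marker calls that did not pass without Control 3 and Control 5 were Pdgfra (log2 0.53, adjusted p = 0.0536), Lum (log2 0.68, adjusted p = 0.0653), Tek (log2 0.42, adjusted p = 0.0938), Kdr (log2 0.38, adjusted p = 0.179), Vwf (log2 -0.85, adjusted p = 0.121), Cldn5 (log2 -0.65, adjusted p = 0.166), Mrc1 (log2 0.75, adjusted p = 0.162), Vtn (log2 -0.57, adjusted p = 0.0914) and Stard10 (log2 -0.43, adjusted p = 0.0585).

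Counts of few calls moved with single libraries in further lists. In fatty acid oxidation 1 gene was lower without Control 1, and in the citric acid cycle and branched-chain list 1 was lower without Control 4. Glycolysis genes lower in AngII+QDG numbered 1 without AngII+QDG 3 and 4 without Control 5, and higher ones 1 without AngII+QDG 1, 2, 3, 4 or 5 and 4 without Control 4. Insulin and growth factor genes were higher in 1 without Control 3 or 5 or AngII+QDG 1, 4 or 5, and lower in 2 without Control 1 or 5 or AngII+QDG 4. Antioxidant genes were higher in 1 without Control 3 or AngII+QDG 1, 3, 4 or 5 and 4 without Control 4, mitochondrial genome genes lower in 0 without AngII+QDG 1 or 3, 1 without Control 1, 3 or 5 and 4 without Control 4, and complex II to V genes higher in 0 without AngII+QDG 1 or 3 and 3 without Control 4. Higher interferon genes numbered 2 without Control 1 or 4, 1 vascular gene was lower without Control 4 or AngII+QDG 3, and 1 apoptosis gene without Control 5. Endothelial markers were higher in 1 without AngII+QDG 1, 4 or 5 and 5 without Control 2, and lower in 0 without Control 5 or AngII+QDG 4 or 5 and 1 without Control 2 or 3 or AngII+QDG 1 or 2. Markers had 3, 2 and 1 rises and 2, 3 and 2 falls in the endothelial list, 1, 1 and 1 rises and 0, 3 and 0 falls in the macrophage list, 1, 0 and 0 rises and 1, 4 and 2 falls in the cardiomyocyte list and 1, 1 and 0 rises in the fibroblast list under the other scalings. Of the other named calls, those of Col6a3, Col8a1, Ccn1, Lama4, Lamb1, Plod2, Adamts9, Tgfbr3, Ankrd23, Sptan1, Btg2, Egr1, Nr4a3, Hspe1, Eif2ak3, Chac1, Gclc, Mt1, Sod1, Txn1, Sdha, Rplp2, Gabarap and Cxcl12 did not pass without Control 3 and Control 5 either (adjusted p 0.0678 to 0.272).

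Other settings ended named calls as well. Under both quantile normalization and median scaling these were Col8a1, Lum, Lama4, Lamb1, Plod2, Adamts9, Acvr2a, Ltbp1, Tgfbr3, Kcnd2, Kcna5, Btg2, Egr1, Nr4a3, Prkce, Prkca, Ppp3ca, Psat1, Eif2ak3, Gclc, Dbt, Hk2, Igfbp5, Irs2, Fbxo30, Cdkn1b, Foxo1, Gbp7, Bcl2, Birc2, Cflar, Ogn, Tek, Lyve1 and Mrc1 (adjusted p 0.0504 to 0.552). Quantile normalization alone of the 2 ended Gpx3, S100a1, Hspe1, Gpx4, Sod1, mt-Co2, mt-Cytb, Map1lc3a, Gabarap and Clock (adjusted p 0.0565 to 0.99). Median scaling alone ended Col6a3, Ccn1, Ankrd23, Mypn, Asph, Sdha, Acadm, Dld, Cxcl12 and Mcl1 (adjusted p 0.0621 to 0.394). Of the 148 named calls, 75 remained with the length trend removed, 108 with the Control and AngII+QDG libraries alone in the fit and 133 of 146 with the mitochondrial genes left out before rescaling. A pseudocount of 0.1 ended, beside Dohh, the calls of Lamb1, Rgs2, Gclc, Cldn5 and Mrc1 (adjusted p 0.0504 to 0.114). With all named transcripts counted the change of Gtf3c4 was 0.51 in place of 1.68, and it stayed called.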

How the data were processed

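RNA of 15 mouse hearts was sequenced after ribosomal RNA depletion, per the labels' protocols. The deposited values were read as FPKM per transcript, from the values: no file header states the unit or the normalization. The submitters' processing notes name GRCm38 and limma, while aligner and quantifier were not given in the sources used here.

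From the deposited files, 22463 named Ensembl transcripts (GENCODE M21, GRCm38) listed for all 15 libraries were summed to 12380 genes. The 7508 assembled transcripts without a gene name stayed outside these sums, with the reads assigned to them, so a gene's value can move with the isoform that took its reads. A gene was tested where 5 or more libraries held 0.5 FPKM or more, with limma 3.58.1 (R 4.3.3; trend and robust variance) on log2(FPKM + 1), all 15 libraries in 1 fit with 12 residual degrees of freedom, adjusted by Benjamini-Hochberg at 0.05. The fit was also run on simulated data, independent normal values with changes put into some genes. No shift of the short-against-long balance was simulated, so that run cannot show how such a shift affects the calls. Library measures were compared by exact permutation tests. Depth was taken from the smallest step of low values, 51610000 to 78330000 steps over the 15 libraries, if 1 step is 1 fragment. No pair of libraries held identical values. Figures were drawn with matplotlib 3.10.9, and tables were made with pandas 2.3.3 and numpy 2.4.6 under Python 3.11.15.

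Named genes were the 10 largest rises and 10 largest falls among called genes without overlap between the groups and with 1 FPKM or more as the mean of whichever group was higher, 16 preset genes, and the members with the smallest p of each list with at least 4 tested members (up to 4 for a pathway and 3 for a cell type). The members and lists were chosen with earlier results of these data known. Alternatives covered the pseudocount, the filter, the scaling, the libraries and transcripts used, the replicate number as a block and the short-against-long balance. The removal of the length trend from each library was added after seeing the data. A few genes that the rule names are not reported here.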

Additional observations from a re-analysis of the deposited data

Results flagged for a closer look

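In the groups of 5 values of the genes named above, 20 of 336 had 1 library whose gap to the nearest other was more than 0.71 of the group's range (Dixon's limit for 5 values). Chance flags about 1 group in 20.

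High single Control libraries were Btnl9 in Control 4 (6.57 FPKM, next 0.0800), Adnp in Control 4 (0.247, next 0.0445), Hdac9 in Control 4 (0.127, next 0.0242), Slc38a2 in Control 4 (17.4, next 12.4) and Pik3ca in Control 4 (2.498, next 0.775). Control 1 stood out for Kcnj5 (4.90 FPKM, next 1.47), Optn (18.4, next 10.3) and Cd74 (181, next 83.4), Control 2 for Clock (1.38, next 0.580) and Control 3 for Inmt (47.0, next 25.2). Control 5 was low for Agtr1a (0.176 FPKM, next 9.58), Gclc (0.0160, next 1.32) and Cd163 (1.48, next 3.09).

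In AngII+QDG, Insr in AngII+QDG 1 (0.382 FPKM, next 0.108), Yap1 in AngII+QDG 2 (9.90, next 3.73), Flnc in AngII+QDG 3 (43.9, next 35.3) and Kcna5 in AngII+QDG 4 (16.3, next 12.7) were high. Timp1 in AngII+QDG 1 (1.37 FPKM, next 2.26), Cdkn1b in AngII+QDG 4 (5.43, next 9.34) and Dusp16 in AngII+QDG 5 (2.26, next 3.53) were low.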

How the results depend on the processing

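Of 148 called genes followed by name, 50 were called under every alternative other than the short-against-long balance as a term, and 2 (Sptb and Gtf3c4) under all. The 2278 calls (1893 higher, 385 lower) became 1277 (1129 and 148) with Control and AngII+QDG alone in the fit, 1080 (893 and 187) without Control 3 and Control 5, 1105 (612 higher) with the length trend removed, and 2 (2 and 0) with the balance term. Quantile normalization gave 882 higher and 903 lower, median scaling 727 and 1557, and leaving out the mitochondrial genes before rescaling 2850 and 167. Leaving out 1 library gave 1297 to 2919 calls, 1140 to 2504 higher and 157 to 421 lower. AngII+QDG against AngII gave 0 to 1, the 1 call without AngII+QDG 3. Members of the gene lists gave 216 calls, 132 with the 2 groups alone, 115 with the length trend removed, 105 without Control 3 and Control 5, 1 with the balance term, and 127 to 277 leaving out 1 library. With the balance term the change of Lamb1 turned to -0.16, Cmya5 to -0.087, Mypn to -0.091, S100a1 to 0.026, Prkca to -0.058, Hk2 to -0.40, Igfbp5 to -0.28, Gabarap to 0.068, Cxcl12 to -0.18 and Kdr to -0.21. With the length trend removed Ppp3ca turned to -0.0017 and Foxo1 to -0.060, and with quantile normalization mt-Cytb to 0.0043. The cause of these moves was not tested. The replicate block gave 1444 higher and 269 lower genes. Deviations of libraries with the same number correlated at -0.1 to 0.083, and 1 of 5 numbers correlated best with itself. No pairing by number was seen in the values, but this check cannot show whether the animals were matched by number. Precision at low values is limited: a gene near 0 FPKM rests on few reads, and its log2 change depends on the pseudocount.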
